A study of Homo sapiens with 4 samples.

Results

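The tripartite motif (TRIM) family was taken as every gene of the deposited expression table whose symbol is TRIM followed by a number and at most 1 letter, which gave 73 of 36602 genes. All 73 matched a gene of GENCODE 29 on GRCh38 by identifier, and coordinates are given on that build. OVCAR5, an established human ovarian carcinoma cell line, had been grown in vitro with or without supernatant from a coculture of tumor cells and T cells. Per the labels there were 24 conditions, made of 6 supernatant levels (no supernatant, undiluted supernatant, and supernatant diluted 5, 25, 125 or 625 times) at each of 4 exposure times (2, 6, 12 and 24 h). The labels name 1 line for all cells, which were read in 1 pool by droplet 3′ single-cell RNA sequencing, with 2 gene-expression and 2 cell-hashing libraries. In cell hashing, antibodies that carry an oligonucleotide tag mark the culture a cell came from, and here each culture carried a pair of tags such as HTO3/HTO9.

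Which of these pairs belongs to which condition is not given in the sources used here. No culture could therefore be called untreated or exposed, no groups were compared, and no test was made. Each condition was 1 culture, so the intervals given cover counting error only and no error between replicate cultures is known. In place of dose and time, the members were set against summed levels of gene lists in the same cultures, chiefly a list of genes known to be induced by interferon gamma and a list of known NF-κB targets.

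Most TRIM proteins have a RING domain, which recruits an E2 enzyme and transfers ubiquitin, followed by B-box zinc fingers and a coiled coil through which they pair. 6 of the 73 members have no RING domain. The C-terminal domain differs between members and binds the target; the PRY-SPRY domain is the most frequent one. Several members are known antiviral factors or regulators of RNA and DNA sensing, and many of these are induced by interferons. Others work in the nucleus as transcriptional corepressors or in the cytoplasm in protein turnover, with no known tie to infection.

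Of 10660 cell barcodes, 6408 passed the filter of 1000 or more genes and a mitochondrial share of 20% or less of UMIs (unique molecular identifiers, each standing for 1 captured RNA molecule), and 5298 of these carried 1 of the 24 tag pairs. A tag pair held 137 to 272 cells and 1863154 to 3904112 UMIs, so that 3 counts corresponded to 0.768 to 1.61 CPM (counts in each 1000000 UMIs). HTO3/HTO9 stood apart from the others, with the highest interferon gamma list, the highest NF-κB list, the lowest level of mitotic genes and the highest median mitochondrial share (13.8%, against 8.67% in HTO7/HTO10). Ranges of named genes whose extreme lies in it are given with and without it. Of 8 epithelial markers, 7 had a mean of at least 1 CPM, and their summed level was 1833 to 3646 CPM. Of 12 T cell markers, 1 did (TRBC2), CD3E, CD3G, CD2, PTPRC and GZMB had 0 counts, and the summed level was 0.840 to 7.51 CPM. The interferon gamma list was lowest in HTO4/HTO8, at 403 CPM, had a median of 3900 CPM and reached 18687 CPM in HTO3/HTO9. A wide gap separated the 4 lowest pairs (HTO1/HTO10, HTO2/HTO9, HTO4/HTO8 and HTO7/HTO10) from the other 20, and rank correlations with this list are given over those 20. The NF-κB list ran from 368 to 7064 CPM between the same extremes and had no such gap.

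Of the 73 members, 17 had a mean of at least 20 CPM, 14 had a mean of 5 to 20 CPM and 42 were below 5 CPM, among them 17 with no count at all. Range means a gene's highest value minus its lowest over the tag pairs, both as log2(CPM + 10), a scale that understates the change of low genes. Among the 17 members of at least 20 CPM, 9 had a range of 2-fold or more, where 26.1% of the 5767 genes at that level did. A range of 4-fold or more was reached by 1 of 17, TRIM69, where 4.13% of genes did. The median range of the 17 members was 1.11 on the log2 scale, against 0.74 over all genes of that level. The excess coefficient of variation (CV, the spread left after counting error is subtracted) had a median of 20.3% in the members and 12.6% in all genes. An excess CV of 10% or less, called flat here, was found in 1 of 17 members (TRIM27) and in 35.3% of genes. Among the 14 members of 5 to 20 CPM the order was the other way round: their median range was 0.63 against 0.70 for the 3728 genes at that level, and their median excess CV was 13.1% against 15.9%. These counts describe the members that reached each level, not the whole family. Summed over all members, the family's level moved little, between 1009 and 1343 CPM with a median of 1219.

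**Figure D1:**
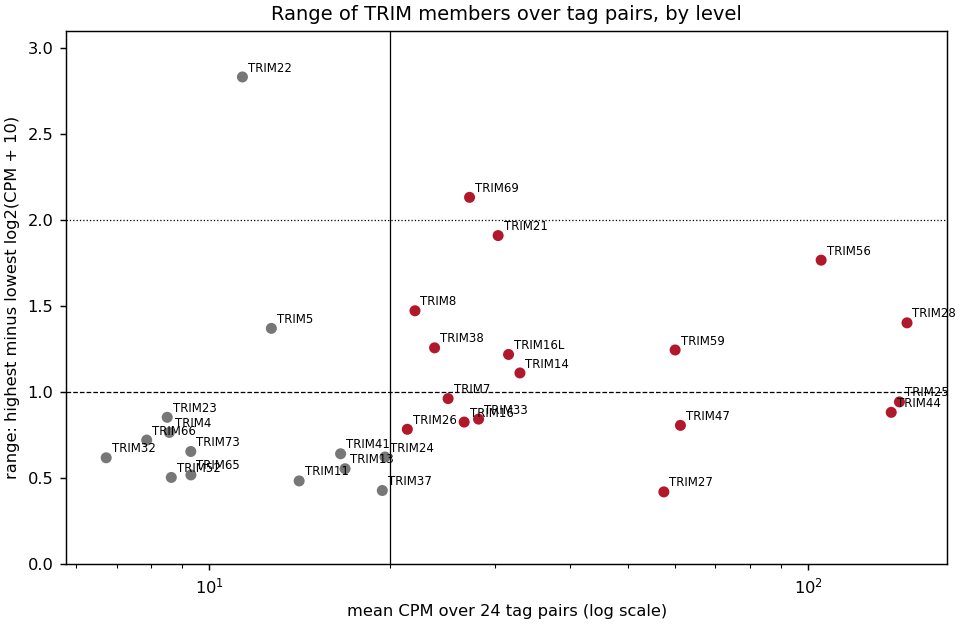
Range over 24 tag pairs, as highest minus lowest log2(CPM + 10), against the mean CPM on a log axis for the 31 members of at least 5 CPM; red points have a mean of at least 20 CPM, and the dashed and dotted lines mark 2-fold and 4-fold. TRIM22 lies far above the other members below 20 CPM, and TRIM27 and TRIM37 lie lowest.

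The members did not move as 1 group. In the plot of all members by tag pair, TRIM22, TRIM69, TRIM21, TRIM56, TRIM38, TRIM8 and TRIM5 were high where the interferon gamma list was high. TRIM44 was high there as well, over a range below 2-fold. TRIM28 and TRIM59 were low there, and most of the other members showed neither pattern. Of the 17 members of at least 20 CPM, 5 had a rank correlation (Spearman's coefficient) of 0.6 or more with the interferon gamma list over 20 tag pairs (TRIM69, TRIM44, TRIM38, TRIM56 and TRIM8), where 11.3% of genes did. A rank correlation of -0.6 or less was found in 2 of 17 (TRIM28 and TRIM59), where 30.8% of genes did. The median rank correlation was 0.388 in the members and -0.343 in all genes. These correlations are descriptions over single cultures that share doses, times and 1 pool, and they carry no p-value.

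**Figure D2:**
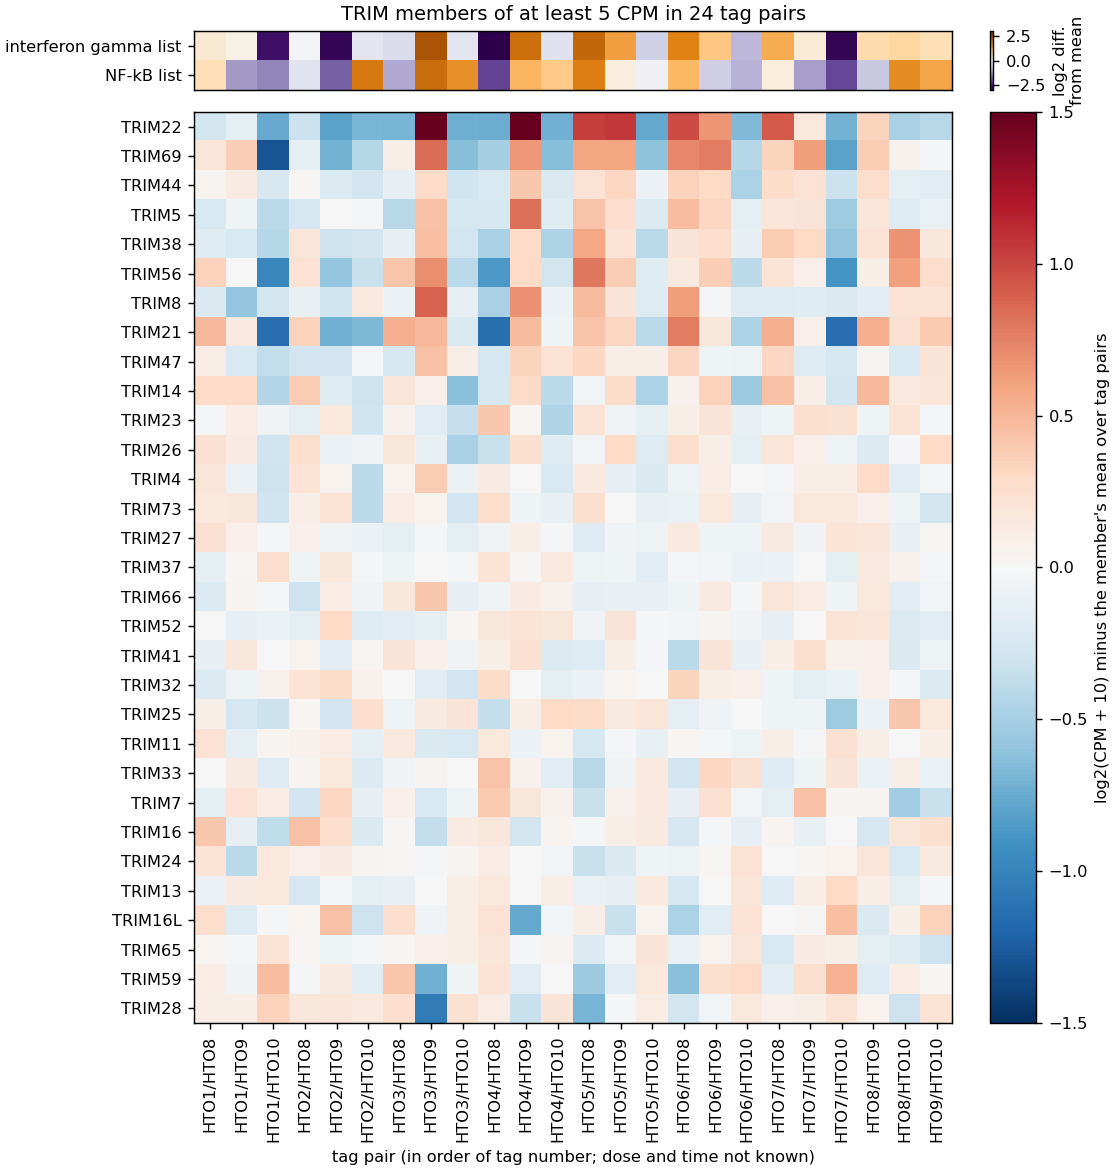
Each row is a TRIM member with a mean of at least 5 CPM, sorted by its rank correlation with the interferon gamma list, and each column is a tag pair; color gives log2(CPM + 10) minus the member's mean, and the strips on top give the interferon gamma and NF-κB lists in log2. The darkest red cells are TRIM22 in HTO3/HTO9 and HTO4/HTO9, and the darkest blue ones include TRIM28 in HTO3/HTO9 and TRIM69 and TRIM21 in HTO1/HTO10.

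An interferon-stimulated response element, a site bound by IRF factors, was searched as GAAANNGAAA on either strand in the 250 bases before each RefSeq gene start (GRCh38.p14). A gene can have several windows, so shares of windows and counts of members are unlike measures. The element was found in 1061 of 35116 such windows (3.02%) and in 9 of the 75 windows of members. These 9 windows belong to 9 of the 56 members that had a window. Among members of at least 20 CPM these were TRIM14, TRIM16, TRIM26, TRIM44 and TRIM69 (5 of 13 with a window), and among those of 5 to 20 CPM TRIM5 (1 of 9). TRIM16, TRIM26 and TRIM44 had a match and a range below 2-fold. TRIM21, TRIM38, TRIM56 and TRIM59 had a range of 2-fold or more and a window without a match. No window was in the table for TRIM8, TRIM11, TRIM13, TRIM16L, TRIM22, TRIM24, TRIM27, TRIM28 and TRIM4. The stretches below are shown because their genes are followed in the next paragraphs; they run 5′ to 3′ on the gene's strand, and capitals mark the match, which is read as its reverse complement where it lies on the opposite strand. The sequences are TRIM69 at chr15:44736441-44736500 (+), TRIM14 at chr9:98119223-98119273 (-), TRIM5 at chr11:5685075-5685126 (-), TRIM34 at chr11:5624886-5624945 (+), TRIM44 at chr11:35662715-35662774 (+) and TRIM16 at chr17:15682997-15683056 (-). Of these, TRIM34, TRIM44 and TRIM16 had a range below 2-fold.
TRIM69: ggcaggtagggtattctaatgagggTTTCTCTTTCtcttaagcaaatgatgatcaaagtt
TRIM14: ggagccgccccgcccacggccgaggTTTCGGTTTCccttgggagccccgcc
TRIM5: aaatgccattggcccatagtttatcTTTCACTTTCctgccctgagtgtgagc
TRIM34: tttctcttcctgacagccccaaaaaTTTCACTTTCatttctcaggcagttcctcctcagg
TRIM44: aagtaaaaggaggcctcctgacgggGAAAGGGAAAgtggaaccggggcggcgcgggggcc
TRIM16: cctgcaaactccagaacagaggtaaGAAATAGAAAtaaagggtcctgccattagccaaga
Read in this direction, the match began 62 bases before the RefSeq start used for TRIM69, 26 before that of TRIM14 and 27 before that of TRIM5. For TRIM69, TRIM5 and TRIM34 the stretch lies inside the GENCODE span of the gene given here, so that these RefSeq starts are not the outer end of that span. TRIM5 and TRIM34 carried the same 10 letters. A match is a description of these letters, and binding was not measured. The gamma-activated site, a palindrome known from genes induced by interferon gamma, was searched as TTCNNNGAA. It was found in 6.57% of all windows and in 12 of the 75 windows of members. These belong to 11 of 56 members, of which TRIM7 and TRIM16 had at least 20 CPM. The κB motif was found in 9.96% of all windows and in 4 of the 75 windows of members. These belong to 4 of 56 members, of which TRIM14 had at least 20 CPM.

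TRIM22 had the widest spread of the family. It is an interferon-induced member that restricts several viruses and lies at chr11:5689689-5737089 on the plus strand, beside its relatives TRIM6, TRIM34 and TRIM5. Its level was 0 CPM in HTO2/HTO9 and 3.50 CPM at the median, with a maximum of 61.3 CPM (154 counts) reached in HTO3/HTO9. That maximum was at least 66.7-fold higher than HTO2/HTO9, whose level was set to 3 counts for the ratio. In 10 tag pairs it was below 1 CPM, and these included the 4 pairs with the lowest interferon gamma list. The highest values were those of HTO3/HTO9 and HTO4/HTO9 (48.0 CPM), followed by HTO5/HTO9, HTO5/HTO8, HTO6/HTO8 and HTO7/HTO8 at 23.1 to 26.3 CPM. The order was not that of the list throughout, since HTO5/HTO8 (25.8 CPM) had the second-highest list level. Its range was 2.83 on the log2 scale and 2.54 without HTO3/HTO9. Over the 20 tag pairs the rank correlation with the interferon gamma list was 0.913 (Pearson's r 0.935, and 0.918 without the 2 pairs farthest from the list's median), while the rank correlation with the NF-κB list over 24 pairs was 0.440. The mitochondrial share moved with it as well (rank correlation 0.754), and its part in the result was not tested.

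TRIM22 was also seen per cell. With every cell thinned to 3000 UMIs, 0 of 244 cells of HTO2/HTO9 had a TRIM22 UMI, which allows a share of up to 1.23% by the 3 counts used for every 0 (exact 95% upper limit 1.5%), and 44 of 246 cells of HTO3/HTO9 did (17.9%, exact 95% interval 13.3 to 23.3). Without thinning the shares were 0% and 37.0%, at median depths of 13104 and 9389 UMIs per cell. The tag pair with the fewest UMIs per cell thus had the largest thinned share of cells with a TRIM22 UMI. At these depths a cell without a UMI cannot be called negative.

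The genes most like TRIM22 over the 24 tag pairs, looked up after its values had been seen, were TNFSF13B (r 0.983), LAP3 (0.980), GBP5 (0.973), HLA-DRA (0.959) and NUCB1 (0.956). TNFSF13B encodes the cytokine BAFF, GBP5 a guanylate-binding protein that is on the interferon gamma list, and HLA-DRA an MHC class II chain. Of the members, TRIM34 was most like it (r 0.936).

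The neighbors of TRIM22 on chromosome 11 differed among themselves. TRIM5, a restriction factor that binds retroviral capsids, overlaps TRIM22 on the opposite strand (chr11:5663557-5938619), and whether the counting used strand is not given in the sources used here. TRIM5 was 5.21 CPM in HTO7/HTO10, a median of 10.8 CPM and 29.3 CPM in HTO4/HTO9, a spread of 5.63-fold (95% interval 3.23 to 10.5). It was highest in HTO4/HTO9, HTO6/HTO8, HTO3/HTO9 and HTO5/HTO8, and the rank correlation with the interferon gamma list was 0.797. Its range of 1.37 on the log2 scale was 1.00 without HTO4/HTO9. Among members of 5 to 20 CPM, TRIM5 and TRIM22 were the 2 of 14 whose chi-square against equal CPM was 3 or more times its degrees of freedom (1 where there is counting error only), where 22.6% of genes at that level were.

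TRIM34, a close relative of TRIM5 at chr11:5619764-5644398, was low, and it is named because its values had been seen. It was 1.39 CPM in HTO7/HTO10 (4 counts), a median of 3.55 CPM and 11.2 CPM in HTO5/HTO8 (30 counts), a spread of 8.06-fold (2.84 to 31.5). Its 4 highest pairs were HTO5/HTO8, HTO3/HTO9, HTO4/HTO9 and HTO6/HTO8. TRIM6, the next gene upstream at chr11:5596109-5612958, did not share this order. It was 1.19 CPM in HTO3/HTO9 (3 counts), a median of 4.39 CPM and 8.58 CPM in HTO1/HTO10 (28 counts), so that the tag pair with the most TRIM22 had the least TRIM6. Its range of 0.73 was 0.65 without that pair. TRIM68 and TRIM3, which lie farther out on the same chromosome, had chi-square ratios near that of counting error (1.19 and 0.785).

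TRIM69 had the widest range of the members above 20 CPM. It binds microtubules, is interferon-stimulated and restricts vesicular stomatitis virus, and it lies at chr15:44728988-44767829 on the plus strand. Its level was 3.98 CPM in HTO1/HTO10 (13 counts), a median of 26.3 CPM and 51.4 CPM in HTO3/HTO9 (129 counts), a spread of 12.9-fold (7.28 to 24.9). It was also low in the other 3 pairs with a low interferon gamma list, at 9.73 to 14.3 CPM, and in most pairs that carry HTO10. The range of 2.13 was 1.64 without HTO1/HTO10, below 4-fold, and 2.06 without HTO3/HTO9. The rank correlation with the interferon gamma list was 0.817 and with the NF-κB list 0.359. After thinning, the share of cells with a TRIM69 UMI was 0.463% in HTO1/HTO10 and 17.9% in HTO3/HTO9 (5.96% and 40.7% unthinned). The genes most like TRIM69 were PSMB9 (r 0.966), UBE2L6 (0.966), PSMB8 (0.965), PSME1 (0.963) and IFI35 (0.961), of which PSMB9 and PSMB8 encode immunoproteasome subunits and are on the interferon gamma list.

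TRIM21, a cytosolic antibody receptor that sends antibody-coated virus to the proteasome, was second in range (chr11:4384897-4393696, minus strand). Its level was 6.95 CPM in HTO7/HTO10, a median of 33.1 CPM and 53.7 CPM in HTO6/HTO8, a spread of 7.73-fold (4.77 to 13.2). In HTO1/HTO10 and HTO4/HTO8 it was about as low (7.05 and 7.14 CPM). HTO3/HTO8 (list 2295 CPM), where TRIM22 was 0.735 CPM, had 44.8 CPM of TRIM21, above the 42.6 CPM of HTO3/HTO9. Other pairs near that list level were lower: HTO4/HTO10 had 25.8 CPM, HTO3/HTO10 22.4 CPM and HTO2/HTO10 13.6 CPM. The rank correlation with the interferon gamma list over 20 pairs was 0.577, without HTO3/HTO8 0.754, and over all 24 pairs 0.751. The genes most like it were DTX3L (r 0.970), PARP14 (0.949), APOL6 (0.945), HELZ2 (0.938) and HK1 (0.935). DTX3L is itself a ubiquitin ligase, the partner of PARP9.

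TRIM56, a ligase that promotes antiviral signaling through STING and binds RNA, was among the most abundant members (chr7:101085439-101097967). Its level was 45.4 CPM in HTO1/HTO10, a median of 108 CPM and 179 CPM in HTO5/HTO8, a spread of 3.93-fold (3.27 to 4.76). All 4 pairs with a low interferon gamma list, at 45.4 to 63.1 CPM, were below every other pair. It was 135 CPM in HTO3/HTO8 as well, while HTO2/HTO10, HTO3/HTO10 and HTO4/HTO10, near that list level, had 72.3 to 80.0 CPM. The rank correlation was 0.677 with the interferon gamma list and 0.559 with the NF-κB list. After thinning, 10.2% of cells in HTO1/HTO10 and 41.2% in HTO5/HTO8 had a TRIM56 UMI (45.4% and 79.6% unthinned). HELZ2 (r 0.951), C5orf56 (0.946), GBP3 (0.941), PARP14 (0.935) and ADAR (0.933) were most like it, so that HELZ2 and PARP14 were named for both TRIM21 and TRIM56.

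**Figure D3:**
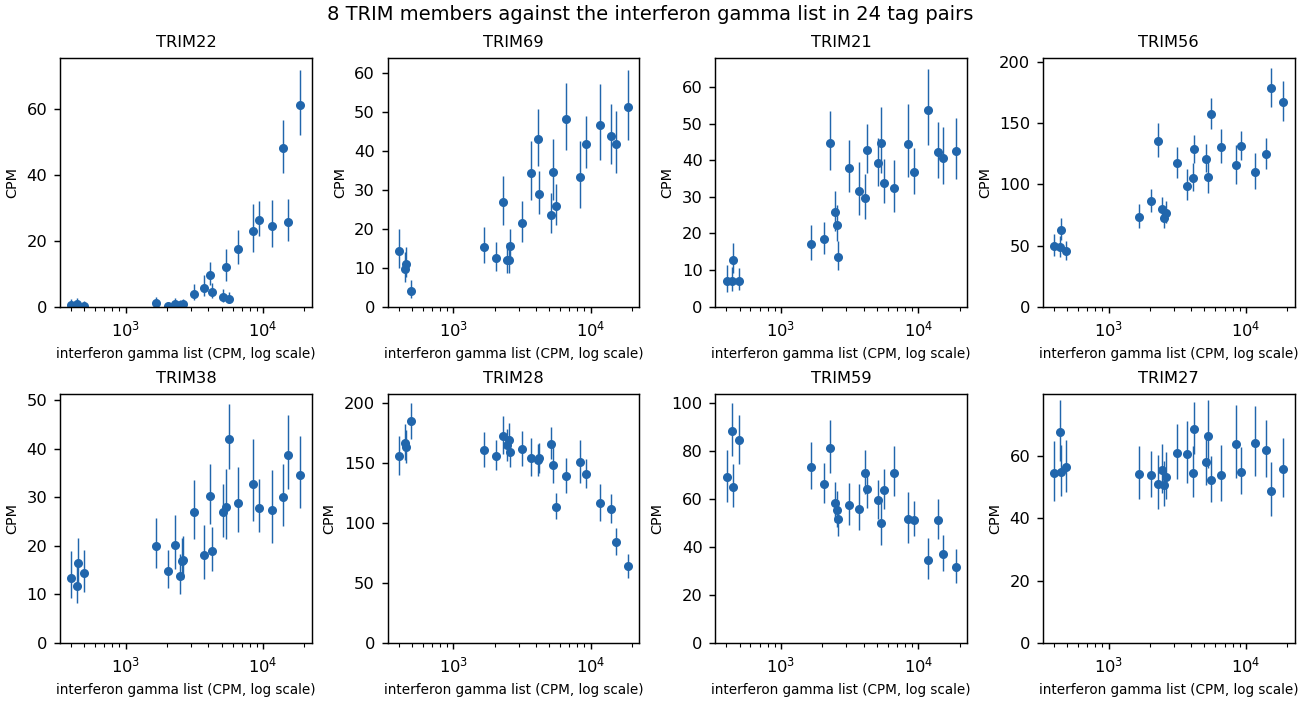
CPM of 8 members against the summed CPM of the interferon gamma list on a log axis; each point is 1 of 24 tag pairs and bars are exact 95% Poisson intervals for counting error. TRIM22 is near 0 in the pairs of low list level and reaches 61.3 CPM, TRIM21 and TRIM56 vary between pairs of similar middle list levels, TRIM28 and TRIM59 fall at the highest levels, and TRIM27 stays between 48.9 and 68.8 CPM.

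TRIM38 and TRIM14 had narrower ranges. TRIM38, a ligase known to restrain signaling through TAB2 and TAB3, was 11.8 CPM in HTO7/HTO10, a median of 23.6 CPM and 42.1 CPM in HTO8/HTO10, a spread of 3.57-fold (2.45 to 5.33). Its highest pair was not one of the highest in the interferon gamma list, with which the rank correlation was 0.786. TRIM14, which has no RING domain and acts as an adaptor of the mitochondrial protein MAVS, was 17.2 CPM in HTO3/HTO10, a median of 34.5 CPM and 48.8 CPM in HTO8/HTO9, a spread of 2.83-fold (2.07 to 3.91). Its 34.2 CPM in HTO3/HTO9 were no higher than the median, and the rank correlation was 0.406 with the interferon gamma list and 0.023 with the NF-κB list. Over all 24 pairs the rank correlation of TRIM14 with the interferon gamma list was 0.570. With a list of antiviral genes, such as the IFIT, OAS and MX genes, it was 0.634 over 24 pairs (r 0.689). A rank correlation of 0.6 or more with that antiviral list was found in 7 of 17 members of at least 20 CPM and in 9.76% of genes.

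TRIM44, which has no RING domain and stabilizes other proteins, had a high level and a range below 2-fold. It was 94.4 CPM in HTO6/HTO10, a median of 132 CPM and 182 CPM in HTO4/HTO9, a range of 0.88 on the log2 scale, with an excess CV of 18.6%, both above the medians of all genes at that level. The order of its values was close to that of the interferon gamma list, with a rank correlation of 0.809. Of 3 pairs with similar list levels, HTO8/HTO10 (list 5603 CPM) and HTO9/HTO10 (list 5111 CPM) had 122 and 119.9 CPM of TRIM44, and HTO8/HTO9 (list 5332 CPM) had 165 CPM.

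The members that went with the NF-κB list were partly the same, since TRIM8 and TRIM59 passed the limit of 0.6 or -0.6 with both lists over the tag pairs used for each. Of the 17 members of at least 20 CPM, 3 had a rank correlation of 0.6 or more with it (TRIM25, TRIM8 and TRIM47), where 4.61% of genes did, and 2 had a rank correlation of -0.6 or less (TRIM7 and TRIM59), where 10.2% of genes did. TRIM25, which ubiquitylates the RNA sensor RIG-I and binds RNA, stood out: its rank correlation was 0.845 with the NF-κB list (r 0.843, and 0.803 without the 2 pairs farthest from the median) and -0.026 with the interferon gamma list over 20 pairs. Over all 24 pairs the latter was 0.405. Its level was 93.4 CPM in HTO7/HTO10, a median of 142 CPM and 189 CPM in HTO8/HTO10, a range of 0.94, just below 2-fold. The pairs HTO4/HTO10 (174 CPM), HTO2/HTO10 (169 CPM) and HTO3/HTO10 (162 CPM), where TRIM22 was below 1 CPM, were among its highest. HTO1/HTO9, with a middle level of the interferon gamma list and a low NF-κB list (643 CPM), had 117 CPM. The mitochondrial share followed TRIM25 less than it did TRIM22 (rank correlation 0.254).

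TRIM8, a mostly nuclear ligase that promotes NF-κB signaling and binds SOCS1, was 10.7 CPM in HTO1/HTO9, a median of 18.4 CPM and 47.4 CPM in HTO3/HTO9, a spread of 4.44-fold (2.89 to 7.08). Its values were highest in HTO3/HTO9, HTO4/HTO9, HTO6/HTO8 and HTO5/HTO8, at 33.2 to 47.4 CPM, and at most 26.1 CPM in the other pairs. Its range was 1.47, and 1.27 without HTO3/HTO9. Over the tag pairs used for each list, TRIM8 was the only member of at least 20 CPM with a rank correlation of 0.6 or more with both. The values were 0.659 with interferon gamma over 20 pairs and 0.799 with NF-κB over 24 pairs. They became 0.517 and 0.593 with stricter cell filters (2000 or more genes, mitochondrial share of 10% or less). TRIM47 was 44.4 CPM in HTO1/HTO10, a median of 60.5 CPM and 85.2 CPM in HTO3/HTO9, with a range of 0.81 (0.70 without HTO3/HTO9) and a rank correlation of 0.740 with the NF-κB list. With the interferon gamma list its rank correlation was 0.574 over 20 pairs and 0.729 over all 24 pairs. Over all 24 pairs TRIM47 thus also reached 0.6 with both lists. TRIM7, whose PRY-SPRY domain binds glycogenin and proteins ending in glutamine, went the other way: it was 14.1 CPM in HTO8/HTO10, a median of 25.7 CPM and 37.0 CPM in HTO7/HTO9. With a range of 0.96 it lay just outside 2-fold, as TRIM14 (1.11) lay just inside, and the rank correlation with the NF-κB list was -0.701.

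**Figure D4:**
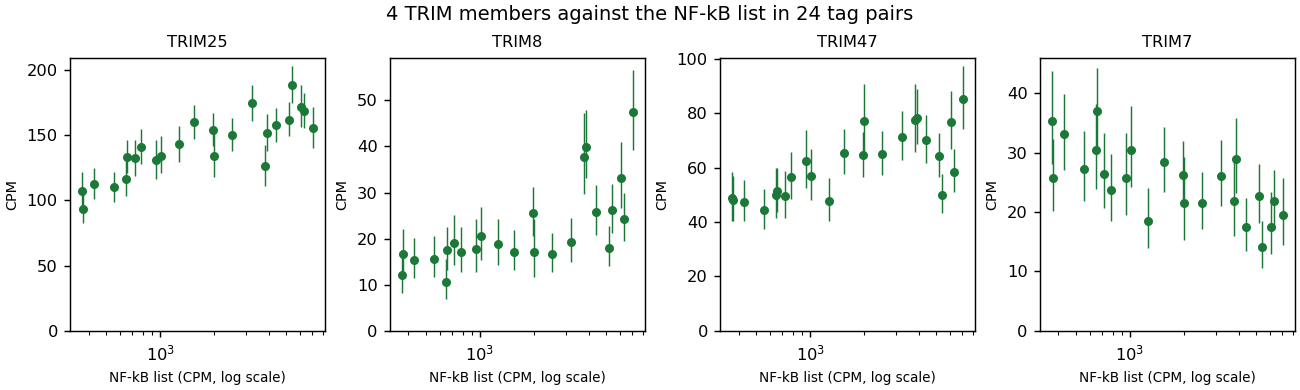
CPM of TRIM25, TRIM8, TRIM47 and TRIM7 against the summed CPM of the NF-κB list on a log axis; points are 24 tag pairs and bars exact 95% Poisson intervals. TRIM25 is higher where the list is higher, TRIM8 is highest in the 4 pairs named in the text, and TRIM7 is lower at the high end, where its intervals overlap those of neighboring points.

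**Figure D5:**
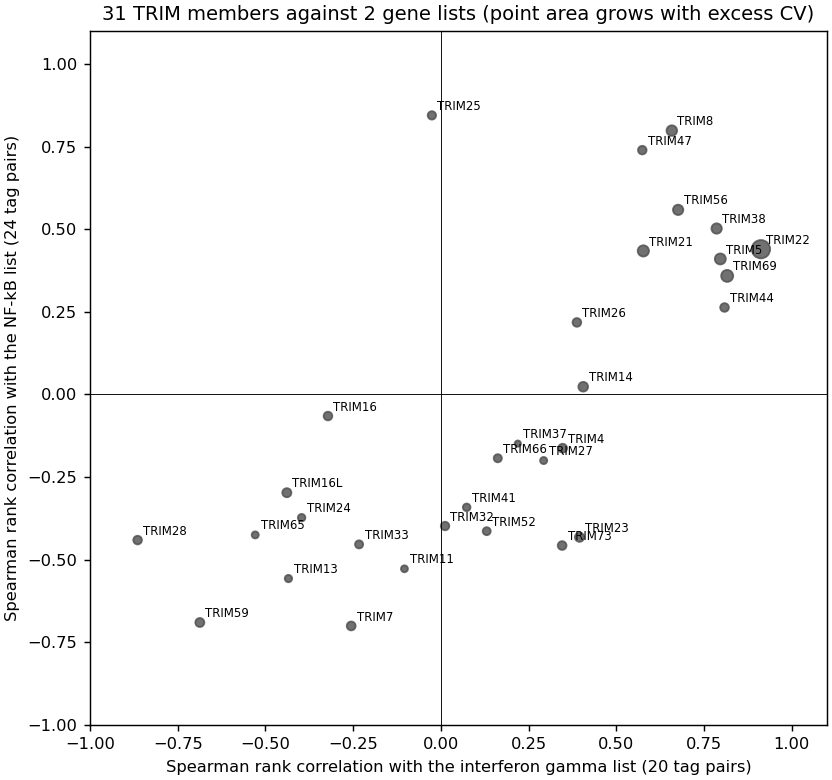
Rank correlation with the interferon gamma list (20 tag pairs) against the rank correlation with the NF-κB list (24 tag pairs) for the 31 members of at least 5 CPM; point area grows with the excess CV. TRIM25 sits at the top near 0 on the horizontal axis, TRIM22, TRIM69, TRIM44, TRIM5 and TRIM38 lie at the right, and TRIM28 and TRIM59 at the lower left.

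The nuclear corepressors TRIM24, TRIM28, TRIM33 and TRIM66, which carry a PHD finger and a bromodomain, did not follow the antiviral members. TRIM28, also known as KAP1, silences retroelements with KRAB zinc finger proteins and was the most abundant member, with a mean of 146 CPM. It was 63.7 CPM in HTO3/HTO9, a median of 155 CPM and 185 CPM in HTO1/HTO10, so that the highest was 2.90 times the lowest (2.43 to 3.48). The next lowest value was 84.0 CPM in HTO5/HTO8, and most other pairs lay near the median, so that its excess CV (18.1%) was among the 6 smallest of the 17 members although its range was 1.40. Without HTO3/HTO9 the range was 1.05. The rank correlation was -0.865 with the interferon gamma list, 0.818 with the list of mitotic genes and -0.858 with the mitochondrial share, and these could not be told apart over these cultures. With stricter cell filters (2000 or more genes, mitochondrial share of 10% or less) the first of them was -0.496.

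The other corepressors had smaller ranges. TRIM33, a regulator of SMAD4, was 18.3 CPM in HTO5/HTO8, a median of 27.8 CPM and 40.7 CPM in HTO4/HTO8, with an excess CV of 13.7%. TRIM24, with a mean of 19.7 CPM just under the minimum, had an excess CV of 8.98%. TRIM66, at a mean of 7.86 CPM, was highest in HTO3/HTO9 at 13.5 CPM (range 0.72, and 0.50 without it), with an excess CV of 13.7%.

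TRIM59, a member anchored in the membrane, resembled TRIM28. It was 31.4 CPM in HTO3/HTO9, a median of 58.8 CPM and 88.2 CPM in HTO7/HTO10, a spread of 2.81-fold (2.17 to 3.66) and a range of 1.24 (1.15 without HTO3/HTO9). Its rank correlation was -0.687 with the interferon gamma list, -0.690 with the NF-κB list and 0.780 with the mitotic list, and the first of these was -0.453 with the stricter cell filters. The r between TRIM59 and TRIM28 was 0.754. TRIM59 overlaps SMC4, a condensin gene of dividing cells, on the opposite strand.

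TRIM27, a ligase first known as a fusion partner of RET, was the flat member of at least 20 CPM. It was 48.9 CPM in HTO5/HTO8, a median of 55.3 CPM and 68.8 CPM in HTO1/HTO8, a spread of 1.41-fold (1.14 to 1.75) and an excess CV of 5.98%. HTO3/HTO9, at 55.7 CPM, lay near the median. Among members of 5 to 20 CPM, 6 of 14 were flat (TRIM24, TRIM37, TRIM13, TRIM41, TRIM11 and TRIM65), where 25.3% of genes at that level were. TRIM37, a ligase of peroxisome import and the centrosome, had a mean of 19.5 CPM, values of 16.1 to 25.1 CPM and no spread beyond counting error (excess CV 0%). TRIM13, anchored in the endoplasmic reticulum, ran from 12.4 to 22.9 CPM, and TRIM11 from 10.1 to 18.1 CPM.

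TRIM16, which lacks a RING domain and helps clear damaged lysosomes, and TRIM16L, which resembles its C-terminal part, share sequence, and their counts are uncertain where reads could be assigned to either. TRIM16L was 14.0 CPM in HTO4/HTO9, a median of 31.4 CPM and 45.8 CPM in HTO7/HTO10, a spread of 3.28-fold (2.30 to 4.75), and its range of 1.22 was 0.93 without HTO4/HTO9. TRIM16 was 17.8 CPM in HTO1/HTO10, a median of 26.4 CPM and 39.2 CPM in HTO2/HTO8. The extremes of these genes fell in different cultures, while the r between them over 24 pairs was 0.562. TRIM26, a gene of the MHC region that restrains IRF3, was 12.3 to 28.3 CPM with a rank correlation of 0.388 with the interferon gamma list.

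The other members of 5 to 20 CPM were TRIM4, TRIM23, TRIM32, TRIM52 and TRIM73, with means of 6.73 to 9.31 CPM and ranges of 0.50 to 0.85. TRIM4 was highest in HTO3/HTO9, and its range of 0.76 was 0.67 without that pair. TRIM73 and TRIM74 are near-identical, and TRIM74 had no counts, so that their split is uncertain. Of the 42 members below 5 CPM, 16 had more than 22 counts in all tag pairs together, 9 had 1 to 22 counts, and 17 had none. Among the 16, chosen after their values were seen, TRIM29 (0 to 6.37 CPM, highest in HTO3/HTO9 with 16 counts, and at most 3.36 CPM without it), TRIM31 (0 to 4.85 CPM, highest in HTO5/HTO8 with 13 counts) and TRIM15 (0 to 2.98 CPM, highest in HTO6/HTO8 with 6 counts) had chi-square ratios of 6.28, 5.35 and 3.27. TRIM31 had the same 4 highest pairs as TRIM34, although at counts this small the order is loose. The members with no counts were TRIM42, TRIM43, TRIM43B, TRIM48, TRIM49, TRIM49B, TRIM50, TRIM51, TRIM63, TRIM64, TRIM64B, TRIM64C, TRIM67, TRIM71, TRIM74, TRIM75P and TRIM77, among them the muscle ligase TRIM63. Those with 1 to 22 counts were TRIM10, TRIM17, TRIM40, TRIM46, TRIM49C, TRIM54, TRIM55, TRIM60 and TRIM72. Counts summed over a multigene family such as TRIM43, TRIM49 and TRIM64 depend on how reads that fit several copies were treated, which is not given in the sources used here.

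By C-terminal class, 42 members carry a PRY-SPRY domain, of which 11 reached 20 CPM and 5 of these had a range of 2-fold or more. Of the 4 PHD-bromodomain members 2 reached 20 CPM and 1 had such a range. Of the 10 with no C-terminal domain or another one, 3 reached 20 CPM and 2 had such a range. Of the 5 members with a rank correlation of 0.6 or more with the interferon gamma list, TRIM69 and TRIM38 carry a PRY-SPRY domain and TRIM44, TRIM56 and TRIM8 do not.

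Related proteins under other names and known partners were read in the same way. Of 11 relatives 2 reached 20 CPM: PML, the scaffold of nuclear bodies and itself a tripartite motif protein, was 18.4 CPM in HTO1/HTO10, a median of 74.1 CPM and 169 CPM in HTO6/HTO8 (9.19-fold, 6.97 to 12.3), and RNF135, a ligase for RIG-I, was flat. Of 38 partners 26 reached 20 CPM, 10 of these had a range of 2-fold or more (26.1% of all genes at that level), 5 of 4-fold or more (4.13%) and 9 were flat (35.3%). Their median range of 0.76 was close to the 0.74 of all genes. UBE2L6, the E2 enzyme for ISG15, had the widest range of 4.02, from 17.2 CPM in HTO1/HTO10 to 432 CPM in HTO4/HTO9. Among the RNA sensors that TRIM proteins modify, IFIH1 ran from 3.82 to 144 CPM (37.8-fold, 20.9 to 76.4) and DDX58, which encodes RIG-I, from 5.82 to 77.6 CPM (13.3-fold, 8.31 to 22.6). The ranges of ISG15 and TMEM173, which encodes STING, were 2.82 and 2.27, and DDX58, ISG15 and TMEM173 had ranges of 2.45, 2.82 and 2.17 without HTO3/HTO9, their highest pair.

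The other E2 enzymes of the list differed among themselves: UBE2D3 (0.36), UBE2V1 (0.38), UBE2W (0.43), UBE2L3 (0.45), UBE2D2 (0.53), UBE2K (0.63) and UBE2D1 (0.67) had ranges below the median of all genes at that level. HTO3/HTO9 held an extreme of UBE2V1, UBE2W, UBE2L3 and UBE2D1, whose ranges without it were 0.35, 0.43, 0.40 and 0.52. UBE2N, which pairs with UBE2V1, had a range of 1.05 (0.84 without HTO3/HTO9, its lowest pair). CBX1, a heterochromatin protein of the silencing complex that TRIM28 nucleates, was lowest in HTO3/HTO9 (52.1 CPM, against a median of 112 CPM), as TRIM28 was, with a range of 1.37 that was 0.69 without that pair. SQSTM1, the autophagy receptor p62, was highest there (1309 CPM, against a median of 730 CPM), with a range of 1.33 (1.17 without that pair). SETDB1, the histone methyltransferase of the same complex, had no spread beyond counting error at a mean of 7.80 CPM.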

How the data were processed

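The deposited matrix holds UMI counts for 36602 genes and 10 hashtags in 10660 barcodes, which the authors made with version 5.0.1 of Cell Ranger according to the file headers (the submitters' processing notes give version 2.1.1, and the build GRCh38). No annotation version, cell caller setting or doublet step is stated in the sources used here. Barcodes of 1000 or more genes and a mitochondrial share of 20% or less were kept and assigned to a tag pair where the second tag count was at least 3 times the third, a margin that barcodes with tags of several cultures can fail. A tag pair counted as in use with at least 100 barcodes. Counts were summed per tag pair and divided by its total to give CPM, and free RNA of the shared pool can add to every tag pair. Ratios carry exact conditional 95% intervals, and a pair at 0 counts was set to 3 counts. The members and lists were chosen with earlier results of these data known. Named genes were the members of at least 20 CPM with a 2-fold range, the 6 of least excess CV, members of 5 to 20 CPM with a chi-square ratio of 3 or more, up to 8 relatives or partners of 2-fold or more with the widest range, and for the 3 members of widest range the 5 most similar genes; other names were chosen after their values were seen. Of the 17 symbols of the interferon gamma list 16 were found, WARS being listed under both of its symbols. Spread statistics were tested on simulated data. Alternatives covered the pseudocount (10 CPM), level minimum, cell filters, tag margin, scaling, cells with many KRT81 UMIs and leaving out each tag pair. Python 3.11.15, numpy 2.4.6, scipy 1.17.1 and pandas 2.3.3 were used.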

Additional observations from a re-analysis of the deposited data

How the results depend on the processing

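The count of members with a 2-fold range (9 of 17) was 14 with a pseudocount of 1 CPM (40.9% of all genes), 2 with one of 50 CPM (8.58%) and 3 of 7 with a minimum mean of 50 CPM (27.7%). It was 11 of 31 with a minimum mean of 5 CPM (22%), 11 of 18 with the stricter cell filters below (41.6%), 9 to 10 under the other planned settings and 8 to 9 with each tag pair left out, TRIM16L being lost without HTO4/HTO9. Without HTO3/HTO9 the same 9 members were called, against 20.2% of all genes. The count with a 4-fold range (1) was 3 with a pseudocount of 1 CPM, 0 with one of 50 CPM, 2 with a minimum mean of 5 CPM, 0 with one of 50 CPM, 3 with stricter cell filters (2000 or more genes, mitochondrial share of 10% or less), and 2 with CPM over genes outside the mitochondrial genome. With each tag pair left out it was 0 to 1, the 0 arising without HTO1/HTO10. The median range of 1.11 was 0.58 with a pseudocount of 50 CPM and 0.96 to 1.11 with each tag pair left out. The rank correlation with the interferon gamma list kept its sign under every alternative for the members at 0.6 or more, or at -0.6 or less, except that TRIM44 was not recomputed. With the stricter cell filters 3 of these fell inside that limit, TRIM28 (-0.496), TRIM59 (-0.453) and TRIM8 (0.517), as TRIM8 also did narrowly with a tag margin of 2 times. With the NF-κB list, TRIM8 (0.593) and TRIM59 (-0.599) did so with the stricter filters, and TRIM7 was not recomputed. For TRIM25 the value near 0 took either sign, from -0.147 to 0.405. Median-of-ratios size factors moved the median of all genes by -0.07 to 0.10 on the log2 scale and added TRIM25 to the members with a 2-fold range. With the stricter cell filters the excess CV of TRIM28, as a fraction, was 0.0796 in place of 0.181. Depth limits the members below 5 CPM, where 3 counts stand for 0.768 to 1.61 CPM.
No paired analysis was possible because the samples carry no groups and no test was made.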

Other observations

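A small population of cells with at least 10 KRT81 UMIs (212 cells, against 6196 others) differed in several members, and it was chosen after earlier results of these data were known. Both groups were taken from all 6408 cells that passed the filter, with or without a clear tag pair. Of the 5298 cells assigned to a tag pair, 5170 had fewer than 10 KRT81 UMIs. TRIM58, a ligase known from red cell maturation, was 34.0 CPM in these cells and 0.191 CPM in the others, and 99 of 212 cells (46.7%) had a UMI of it, against 17 of 6196 (0.274%). Their median depth was 19647.5 UMIs, against 13388. TRIM28 was 272 CPM in these cells and 144 CPM in the others, TRIM33 54.2 and 26.9 CPM, and TRIM37 36.5 and 18.3 CPM. TRIM16L was 12.9 and 32.7 CPM, and TRIM21 12.4 and 28.9 CPM. TRIM58 was therefore nearly a marker of these cells in the pool although its mean over the tag pairs was only 1.41 CPM. A tag pair held 0 to 10 such cells, and the count of members with a 2-fold range was 9 without them. The cut fell in a thin part of the distribution, with 22 cells at 5 to 9 and 11 at 10 to 14 KRT81 UMIs.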
